A study of Mus musculus with 4 samples.

Results

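The variable (V) segments of the T cell receptor alpha chain, the Trav genes, were examined in CD8+ T cells enriched from tumour grafts of mice treated with an antibody against SIGLEC15. Members were all rows of the deposited files whose Ensembl ID carries a symbol starting with Trav in GENCODE release M21, segments shared with the delta chain (Trav-dv names) included. This gave 92 of the 36464 rows, and of the 128 Trav genes in that annotation the other 36 were not analysed here. The rule uses names and no measured values. The anti-SIGLEC15 group was 6 male wild type C57BL/6 mice carrying percutaneous grafts and given intraperitoneal SIGLEC15 antibody over 2 weeks. The IgG group was 6 mice of the same strain, sex and genotype with the same kind of graft, given intraperitoneal IgG on the same plan. Grafts were taken on day 19, and 3 cell pellets were mixed for each library, so each treatment has 2 libraries and every value is a mixture of animals. The tumour line is not named in the labels.

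A T cell builds its alpha chain by joining a V segment to a J segment, and the joined gene is transcribed with the constant gene Trac. The V segment encodes the first and second loops of the alpha chain that touch peptide and MHC, and its end opens the remaining loop, CDR3. Cells of a clone carry the same rearrangement, so the V segments of a pool of T cells record which rearrangements its transcripts come from. Part of the mouse locus is present in repeated copies, whose segments carry d or n in their names.

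The segments below held the largest shares in single libraries. Among them, the relatives Trav13-1 and Trav13-2 were high in different libraries, while Trav12-2 and Trav12-3 were both highest in anti-SIGLEC15 replicate 2. Each line gives the last 60 bases of the segment as annotated in GENCODE M21 (GRCm38, chromosome 14, plus strand). Capitals mark the last match to TATNNNTGT, TATNNNTGC, TACNNNTGT or TACNNNTGC, searched on the coding strand only, whose final triplet is the conserved cysteine codon that opens CDR3. A match was found in 92 of the 92 segments in the files and in 123 of 128 annotated ones (96.1%).
Trav12-2: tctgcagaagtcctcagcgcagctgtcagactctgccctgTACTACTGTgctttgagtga
Trav12-3: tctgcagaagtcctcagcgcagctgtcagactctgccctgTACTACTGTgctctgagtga
Trav13-1: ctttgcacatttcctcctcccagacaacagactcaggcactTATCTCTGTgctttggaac
Trav13-2: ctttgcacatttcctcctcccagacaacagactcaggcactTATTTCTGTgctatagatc
Trav6d-4: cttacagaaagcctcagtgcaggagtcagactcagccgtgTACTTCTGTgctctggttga
Trav3-3: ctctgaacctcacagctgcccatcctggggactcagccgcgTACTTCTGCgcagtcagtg

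Libraries held between 14854806 and 16026199 counted reads, recovered from the deposited RPKM values (reads per kilobase of exon, scaled to the counted reads of the library). Trav rows took 2199 and 2372 reads in the anti-SIGLEC15 libraries, against 805 and 2351 reads in the IgG libraries. A segment of the median length, 370 bases, gains between 0.169 and 0.182 RPKM from a single read, so most segments rest on few reads. Of the 92 segments, 89 had a read in some library, 25 had a read in every library, and 49 never reached 10 reads in any library. Trav12-2, Trav13-1 and Trav3-3 were the 3 segments with at least 10 reads in all 4 libraries. The CD8 chains Cd8a (290 and 315 RPKM with anti-SIGLEC15, 115 and 351 RPKM with IgG) and Cd8b1 were abundant, and Cd4, which marks helper T cells, stayed between 2.04 and 6.83 RPKM.

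The total of Trav transcripts did not separate the treatments, and it was low in the library where T cell identity genes were low. Summed over the 92 rows, Trav measured 351 and 382 RPKM in the anti-SIGLEC15 libraries, against 132 and 405 RPKM in the IgG libraries. The groups overlapped, with IgG replicate 1 alone at the low end. The means were 366 ± 21.5 RPKM with anti-SIGLEC15 and 269 ± 193 RPKM with IgG (SD, n = 2 each), a log2 ratio of 0.45 with an exact two-sided permutation p of 1. Without IgG replicate 1 the log2 ratio was -0.15. With 2 libraries against 2, the smallest p this test can give is 0.333.

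Divided by Trac, which every joined alpha transcript contains, the sum was 0.385 and 0.424 with anti-SIGLEC15 and 0.463 and 0.423 with IgG. Divided by the geometric mean RPKM of 13 T cell identity genes (among them the CD3 chains, Cd2, Lck, Zap70 and Thy1), it was 5.24 and 5.22 with anti-SIGLEC15 and 5.32 and 5.48 with IgG. These ratios span a narrow range while the sums in RPKM differ about as much as the identity genes do, whose geometric means were 66.97 and 73.2 RPKM with anti-SIGLEC15 and 24.9 and 73.9 RPKM with IgG. Fewer T cells in a pellet and less RNA per T cell cannot be told apart in such libraries. Genes of other cell types also differed between the libraries. The summed RPKM of 6 of 6 hepatocyte genes, none at 0, was 1751 and 883 with anti-SIGLEC15 and 4205 and 829 with IgG. Alb, Afp and Ttr, which make up most of that sum, were highest in IgG replicate 1, while Apoa1, Apoa2 and Serpina1a were highest in anti-SIGLEC15 replicate 1. The sum of 5 of 5 neutrophil genes, none at 0, was 203 and 341 RPKM with anti-SIGLEC15 and 802 and 63.6 RPKM with IgG, and each of the 5 was highest in IgG replicate 1. Their part in the summed Trav level was not tested.

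**Figure D1:**
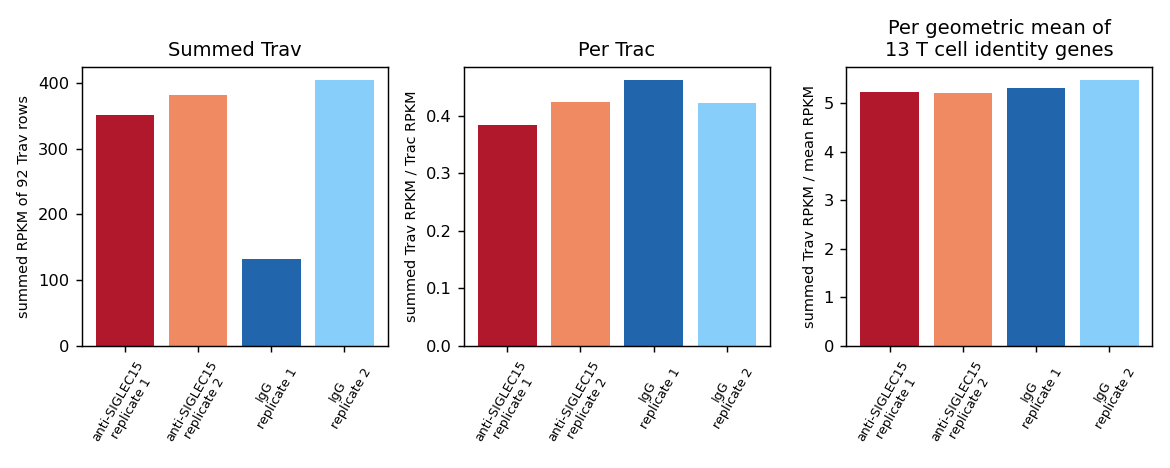
Summed Trav RPKM per library (left), the same sum divided by Trac RPKM (middle) and by the geometric mean RPKM of 13 T cell identity genes (right). Bars are single libraries, anti-SIGLEC15 in red and IgG in blue. The sum is low in IgG replicate 1 at 132 RPKM, and the ratio on the right lies between 5.22 and 5.48 in all 4 libraries.

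Segments are compared from here on by their shares of the summed Trav RPKM, which do not depend on that sum. The leading segment was Trav12-2 in both anti-SIGLEC15 libraries, Trav6d-4 in IgG replicate 1 and Trav13-1 in IgG replicate 2. Trav12-2 (ENSMUSG00000096656, chromosome 14, 53616315 to 53616914, GRCm38) took 44.0% and 58.0% of Trav with anti-SIGLEC15, against 10.7% and 20.5% with IgG. Both anti-SIGLEC15 libraries lay above both IgG libraries, where the segment still ranked 3 and 2. The mean share was 51.0% ± 9.86 with anti-SIGLEC15 and 15.6% ± 6.91 with IgG (SD, n = 2 each), with an exact two-sided permutation p of 0.333, the smallest possible. Red cell genes separated the treatments too: 5 of 5, none at 0, summed to 113 and 19.9 RPKM with anti-SIGLEC15 and 691 and 1929 RPKM with IgG, and their part in the difference in Trav12-2 share was not tested.

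Read counts behind these shares were 1034 and 1400 with anti-SIGLEC15, against 97 and 549 with IgG. As a percentage of Trav reads with 95% Wilson intervals, Trav12-2 made up 47.0% (44.9 to 49.1) and 59.0% (57.0 to 61.0) with anti-SIGLEC15, against 12.0% (9.98 to 14.5) and 23.4% (21.7 to 25.1) with IgG. No interval of one treatment meets one of the other, but the intervals cover counting error only and say nothing of the spread between mice. In RPKM the segment measured 155 and 221.2 with anti-SIGLEC15, against 14.2 and 83.1 with IgG. In limma, on log2(RPKM + 1), the log2 fold change came to 2.38 (SE 0.84; Benjamini-Hochberg adjusted p of 1 over all tested genes), and to 1.70 after scaling to the T cell identity genes. Without IgG replicate 1 the log2 fold change was 1.15, and without IgG replicate 2 it was 3.61. In these fits the spread comes from the treated pair, drawn toward a value shared over all genes. The lone IgG library is assumed to vary likewise, so no p-value is given.

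**Figure D2:**
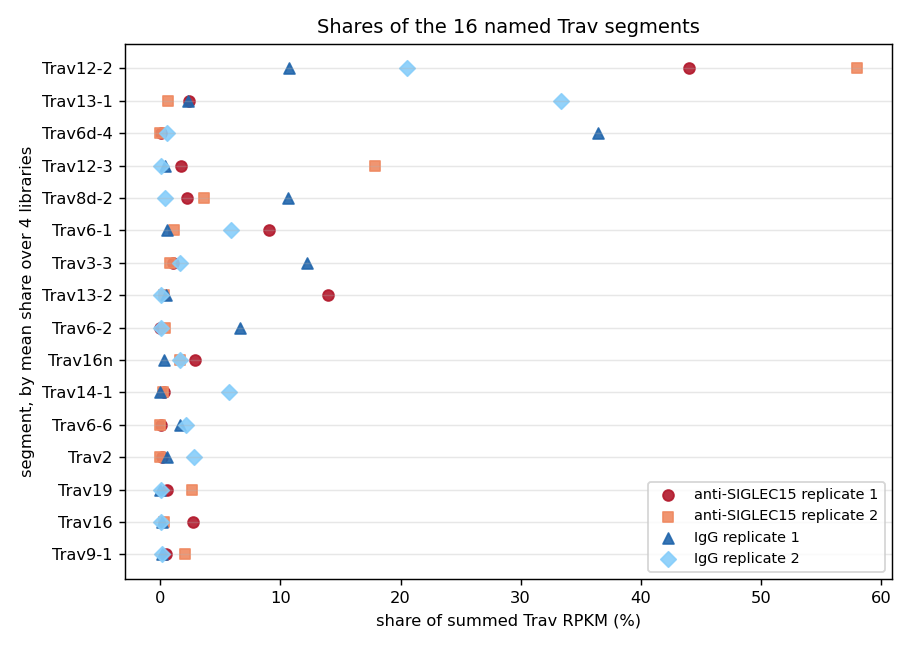
Share of summed Trav RPKM (x axis, percent) of the 16 named segments (y axis, by mean share over the 4 libraries). Red circles and orange squares are anti-SIGLEC15 replicates 1 and 2, blue triangles and pale diamonds IgG replicates 1 and 2. Trav12-2 is large in all libraries and separates the treatments, while most other high points belong to a single library.

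Apart from Trav12-2, the second segment differed between the anti-SIGLEC15 pools. Trav12-3 (53621657 to 53622245), the next segment downstream, took 1.77% and 17.8% with anti-SIGLEC15, against 0.426% and 0.0360% with IgG. Its reads numbered 43 and 447 with anti-SIGLEC15 and 4 and 1 with IgG, so almost all of the signal came from anti-SIGLEC15 replicate 2. Trav13-2 (53634829 to 53635399) took 14.004% and 0.317% with anti-SIGLEC15, against 0.483% and 0.0408% with IgG. It was thus large in anti-SIGLEC15 replicate 1 alone, with 301 reads, and its shares overlap between the treatments although its RPKM values do not. The log2 fold change was 4.06 (SE 1.08) for Trav12-3 and 2.93 (SE 1.47) for Trav13-2 by limma, and both had an adjusted p of 1.

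Among smaller segments with a mean of at least 1 RPKM, Trav16, Trav19 and Trav9-1 had both anti-SIGLEC15 values above both IgG values. Trav16 had 64 and 7 reads with anti-SIGLEC15 and 1 and 1 with IgG. Trav19 had 13 and 67 reads with anti-SIGLEC15 and 0 and 2 with IgG. Trav9-1 had 10 and 46 reads with anti-SIGLEC15 and 1 and 4 with IgG. Each was high in a single anti-SIGLEC15 pool, and their shares there were 2.76%, 2.65% and 2.04%. Their log2 fold changes were 2.05 (SE 0.80), 2.31 (SE 0.70) and 1.79 (SE 0.65) in that order, with an adjusted p of 1 in limma. The relative Trav9d-1 differs from Trav9-1 at 2 of 337 aligned bases and went the other way (log2 fold change -1.11, SE 0.41, in limma). How reads were split between these copies was not tested. Summed over all Trav9 segments, the shares overlapped, at 1.98% and 4.96% with anti-SIGLEC15 and 0.957% and 3.47% with IgG.

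On the other side, a different segment led each IgG library, and neither took more than 2.41% of Trav in any other library. Trav6d-4 (ENSMUSG00000095387, 52753367 to 52753846) took 0.0960% and 0% with anti-SIGLEC15, against 36.4% and 0.547% with IgG. Its reads numbered 2 and 0 with anti-SIGLEC15 and 292 and 13 with IgG, and the count of 0 allows up to 3 reads. Trav13-1 (ENSMUSG00000076839, 53545014 to 53545525) took 2.41% and 0.693% with anti-SIGLEC15, against 2.28% and 33.4% with IgG. The treatments overlap for Trav13-1, since IgG replicate 1 lies between the anti-SIGLEC15 libraries. The log2 fold change was -3.44 (SE 1.29) for Trav6d-4 and -1.99 (SE 1.69) for Trav13-1 by limma, and both had an adjusted p of 1. Without IgG replicate 2, the log2 fold change of Trav13-1 changed sign, to 0.55.

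Trav3-3 and Trav6-6 lay lower with anti-SIGLEC15 in both libraries. Trav3-3 (53665929 to 53666506) took 1.08% and 0.800% with anti-SIGLEC15, against 12.3% and 1.67% with IgG. It had 25 and 19 reads with anti-SIGLEC15 and 109 and 44 with IgG, so every library had over 10 reads. Trav6-6 had 2 and 0 reads with anti-SIGLEC15 and 12 and 47 with IgG, and an annotated copy, Trav6d-6, is identical over the 344 aligned bases, so its reads could belong to either. Their log2 fold changes were -1.39 (SE 0.45) and -2.25 (SE 0.61), both at an adjusted p of 1 from limma. Dropping IgG replicate 1 moved the log2 fold change of Trav3-3 to -0.82, while dropping IgG replicate 2 instead moved it to -1.97. Each of these fits holds a lone IgG library, with the spread taken from the anti-SIGLEC15 pair, so no p-value is given. Trav2 had 4 and 0 reads with anti-SIGLEC15 and 5 and 74 with IgG, and did not pass the filter on low values.

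Trav6-1, Trav8d-2, Trav16n, Trav6-2 and Trav14-1 overlapped between the treatments. Trav6-1 took 9.02% and 1.15% with anti-SIGLEC15, against 0.558% and 5.88% with IgG. Trav8d-2 took 2.26% and 3.66% with anti-SIGLEC15, against 10.6% and 0.425% with IgG. Trav6-1 was thus highest in a single pool of each treatment, while Trav8d-2 was highest in IgG replicate 1 and lowest in IgG replicate 2, with both anti-SIGLEC15 libraries between. Trav16n took 2.93% and 1.62% with anti-SIGLEC15, against 0.341% and 1.69% with IgG. Trav6-2 reached 6.63% in IgG replicate 1 and at most 0.414% in the other libraries, and Trav14-1 reached 5.74% in IgG replicate 2 and at most 0.318% elsewhere.

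Of the 9 segments with at least 100 reads in some library, Trav12-2 reached that number in 3 libraries, Trav6-1 in 2 libraries and each of the other 7 in a single library. By this cut, high usage was mostly a feature of a single pool of 3 pellets. The cut depends on depth, since IgG replicate 1 had 805 Trav reads. Trav12-2, with 97 reads there, and Trav8d-2, with 76, fell below it.

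No Trav segment passed the test. Of 92 segments, 34 had at least 1 RPKM in at least 2 libraries and were tested, and limma on log2(RPKM + 1) called 0 at an adjusted p of 0.05, as it called 0 of all 12484 genes (0%). At an unadjusted p under 0.05 there were 8 of the 34, against 1.17% of all tested genes, 4 of them higher and 4 lower. Because a segment could pass the filter through the libraries of the treatment where it is high, this share is not evidence about the members. A second tool, limma-voom on whole reads, gave 0 calls among 51 segments (0% of 19556 genes); 9 segments had an unadjusted p under 0.05, as did 0.946% of genes. Leaving out IgG replicate 1 gave 9 calls among 28 segments (1.13% of genes), and leaving out IgG replicate 2 gave 11 among 21 (18.6% of genes), with the spread then taken from the anti-SIGLEC15 libraries.

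Over all 89 segments with a read, 18 had both anti-SIGLEC15 values above both IgG values, or 20.2%, where the same held for 14.1% of all 31373 rows with a value. There were 7 lower segments, or 7.87%, against 6.29% of all rows. After scaling each library to the T cell identity genes, 13 segments lay higher (14.6%, against 6.96% of rows) and 7 lower (7.87%, against 11.9%). The median log2 fold change of the 34 tested segments was 0.21 and that of all tested genes 0.02. With the T cell scaling, which moves the median of all genes to -0.58, that of the 31 segments tested was -0.19. Of the 18 higher segments, Trav12-2, Trav12-3 and Trav13-2 are those with over 100 reads in some library.

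Usage was concentrated in every pool, and whether the treatments overlapped depended on the measure. The leading segment took 44.0% and 58.0% with anti-SIGLEC15, against 36.4% and 33.4% with IgG, a difference in means of 16.1 percentage points (exact permutation p = 0.333, n = 2 each). The 5 leading segments together took 72.8% and 84.3% with anti-SIGLEC15, against 76.6% and 69.7% with IgG, so on this measure the groups overlapped. Without anti-SIGLEC15 replicate 2 the difference in the share of the 5 leading segments was -0.44 percentage points. To reach 90% of the signal took 22 and 10 segments with anti-SIGLEC15 and 13 and 17 with IgG.

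The effective number of segments, the exponential of the Shannon entropy of the shares, is the number of equally used segments that would give the same diversity. It was 11.2 and 5.76 with anti-SIGLEC15, against 10.7 and 12.8 with IgG. The means were 8.50 ± 3.88 with anti-SIGLEC15 and 11.7 ± 1.52 with IgG (SD, n = 2 each; exact permutation p = 0.667). Only anti-SIGLEC15 replicate 2 stood apart, and without it the difference was -0.49, against -3.23 with all libraries. The inverse Simpson index of the reads, which weighs the abundant segments more and was corrected for the number of reads, was 4.01 and 2.59 with anti-SIGLEC15 and 5.58 and 6.47 with IgG, without overlap (exact permutation p = 0.333).

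The number of segments seen depends on the reads. A read was found for 71 and 58 segments with anti-SIGLEC15, against 47 and 66 with IgG. At 805 reads, the total of the shallowest library, 58.5 and 41.6 segments would be expected with anti-SIGLEC15, against 47.0 and 50.4 with IgG, so that the treatments overlapped at equal depth.

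**Figure D3:**
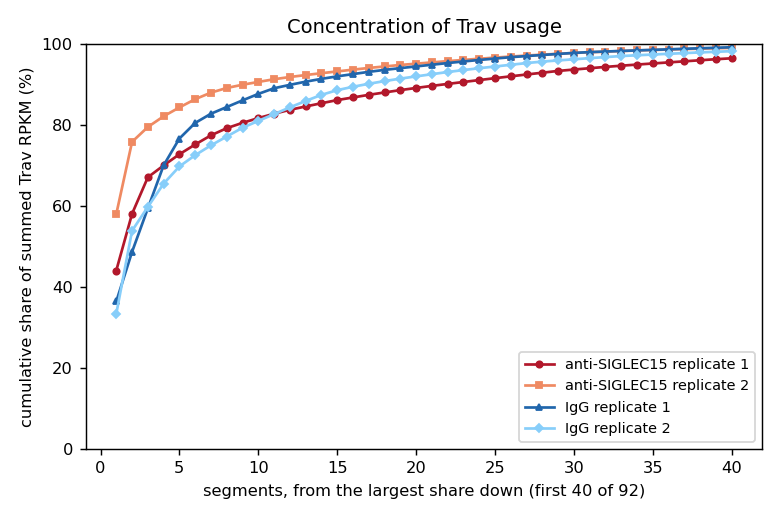
Cumulative share of summed Trav RPKM (y axis, percent) over segments ordered from the largest share down (x axis, first 40 of 92), with a line per library. Anti-SIGLEC15 replicate 2 rises fastest, at 84.3% after 5 segments, and the other 3 lines cross, between 69.7% and 76.6% at that point.

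Usage shared between libraries, the sum over segments of the smaller of both shares, was largest for the anti-SIGLEC15 pair at 59.97%. It was 24.2% for the IgG pair, below 3 of the 4 pairs taken across treatments, which ran from 21.8% to 42.2%. Of the 59.97% shared by the anti-SIGLEC15 libraries, 44.0 percentage points were Trav12-2. With Trav12-2 removed and the shares formed again, the anti-SIGLEC15 pair shared 33.5%, the IgG pair 15.9% and the pairs across treatments 20.98% to 31.8%. These 6 pairs reuse the same 4 libraries and were not tested.

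Segments with the same Trav number form a subgroup, whose d and n copies are summed here. Of 20 subgroups, 7 reached 5% in some library. Trav12, with 7 rows, took 47.3% and 76.2% with anti-SIGLEC15, against 16.7% and 20.7% with IgG. Trav6, with 13 rows, took 11.5% and 2.57% with anti-SIGLEC15, against 46.7% and 15.5% with IgG. Both separate the treatments, in opposite directions, by 43.0 and -24.1 percentage points in the means (exact permutation p = 0.333 each; 0.952 when adjusted over the 20 subgroups). Any non-overlapping split gives this p, so it is no evidence of a difference in usage. Shares of the same total depend on each other, so the opposite directions are not separate results.

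Different segments led Trav6 in each IgG pool. In IgG replicate 1 Trav6d-4 made up 36.4% of the 46.7%, while in IgG replicate 2 Trav6-1 (5.88%) and Trav6-4 (4.25%) led, and without IgG replicate 1 the difference was -8.49 percentage points. Trav13 took 17.4% and 1.10% with anti-SIGLEC15, against 2.76% and 33.8% with IgG. It thus held a large share in a single library of each treatment, through Trav13-2 in anti-SIGLEC15 replicate 1 and Trav13-1 in IgG replicate 2, whose ends are compared in the sequences above. Trav2, Trav3 and Trav7 lay lower and Trav19 and Trav21 higher in both anti-SIGLEC15 libraries, all below 5% there. Each had an exact permutation p of 0.333, which any non-overlapping split gives, and 0.952 when adjusted over the 20 subgroups. The list is therefore no evidence of a difference in usage. Trav2 rested on 4 and 0 reads with anti-SIGLEC15 and 5 and 74 with IgG, and Trav21 on 2 and 9 against 0 and 0.

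**Figure D4:**
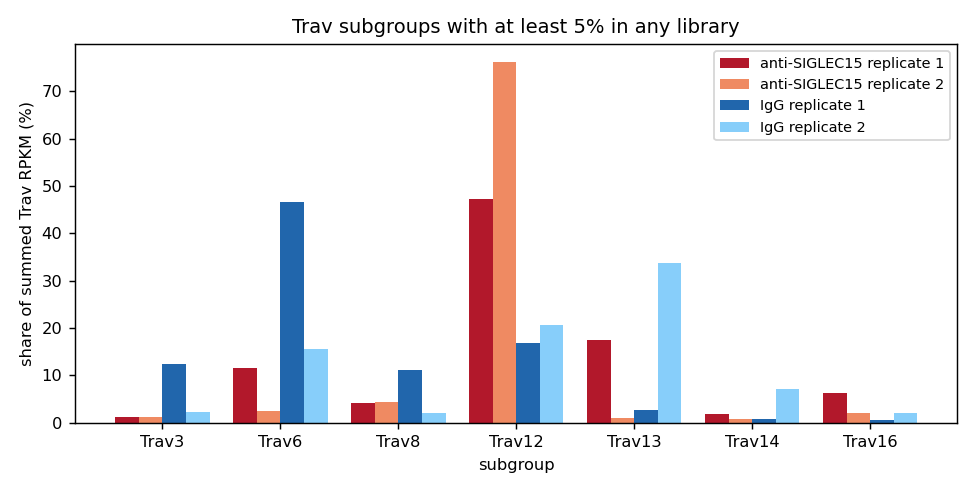
Share of summed Trav RPKM (y axis, percent) of the 7 subgroups that reached 5% in any library (x axis). Bars are single libraries, anti-SIGLEC15 in reds and IgG in blues. Trav12 reaches 47.3% and 76.2% in the anti-SIGLEC15 libraries and 16.7% and 20.7% in the IgG libraries.

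Along the locus, which the 92 rows cover from 52427928 to 53876752 on the plus strand of chromosome 14, usage was largest in the part nearest the J segments in 3 of 4 libraries, IgG replicate 1 being the exception. In 3 bins of 31, 31 and 30 segments, the J-proximal bin (53538191 to 53876752, Trav12-1 to Trav21-dv12) took 73.1% and 86.6% with anti-SIGLEC15, against 32.4% and 66.6% with IgG. The difference in means was 30.3 percentage points (exact permutation p = 0.333), and without IgG replicate 1 it was 13.2. Since Trav12-2 lies in this bin, the shares were also formed without it, and were then 52.0% and 68.2% with anti-SIGLEC15 and 24.3% and 58.0% with IgG, so that the groups overlapped. The bin farthest from the J segments took 17.5% and 6.67% with anti-SIGLEC15, against 61.3% and 13.5% with IgG, led in IgG replicate 1 by Trav6d-4.

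**Figure D5:**
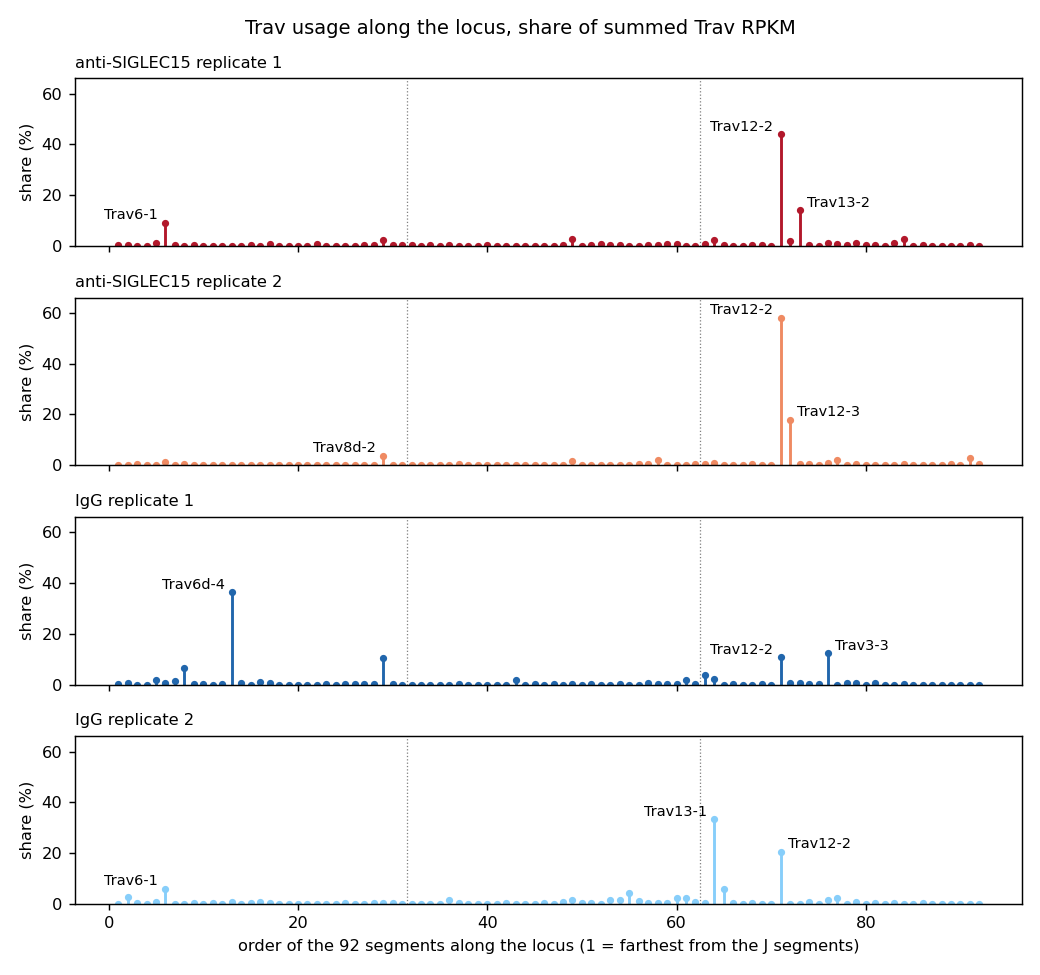
Share of summed Trav RPKM (y axis, percent) of each of the 92 segments in their order along the locus (x axis, 1 farthest from the J segments), with a panel per library, the 3 leading segments labelled and dotted lines between the 3 bins. A few isolated peaks stand in each panel, and Trav12-2 is labelled in all of them, with 44.0%, 58.0%, 10.7% and 20.5% from top to bottom.

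Reads could be assigned with unequal certainty. Of the 92 segments, 85 had another annotated Trav of the same subgroup to align over at least 200 bases, and 19 of them had an identical copy. These 19 took between 0.648% and 4.37% of summed Trav RPKM per library. Of the 36 annotated segments not analysed here, 29 had an identical copy. The leading segments were not of this kind: the nearest relative of Trav12-2 differed at 13 of 426 bases, that of Trav13-1 at 12 of 331 and that of Trav6d-4 at 10 of 378.

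Trav12-2 and Trav12-3 differed at 25 of 426 aligned bases, and many of these fall in the stretch shown here, bases 220 to 319 of the Trav12-2 transcript and 233 to 335 of the Trav12-3 transcript. Capitals mark bases that differ in the alignment, and 3 bases present in Trav12-3 alone are not marked. The stretch, the 100 bases with the most differences, holds 13 of the 25. These neighbours led anti-SIGLEC15 replicate 2 with 1400 and 447 reads.
Trav12-2: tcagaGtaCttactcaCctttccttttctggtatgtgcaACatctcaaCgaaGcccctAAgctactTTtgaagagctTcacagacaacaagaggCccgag
Trav12-3: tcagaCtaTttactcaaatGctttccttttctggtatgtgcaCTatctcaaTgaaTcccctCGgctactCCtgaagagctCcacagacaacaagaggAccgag

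Trav6d-4 and its copy Trav6-4 differed at 10 of 378 bases, 7 of them in bases 179 to 328 of each transcript, again in capitals. Trav6d-4 had 292 and 13 reads in the IgG libraries and Trav6-4 had 0 and 101 there. Each copy was thus highest in a different IgG pool, and neither passed 2 reads with anti-SIGLEC15. How reads were split between the copies was not tested.
Trav6d-4: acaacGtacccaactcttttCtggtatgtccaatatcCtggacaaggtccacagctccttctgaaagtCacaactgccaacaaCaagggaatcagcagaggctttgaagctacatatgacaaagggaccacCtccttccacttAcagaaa
Trav6-4: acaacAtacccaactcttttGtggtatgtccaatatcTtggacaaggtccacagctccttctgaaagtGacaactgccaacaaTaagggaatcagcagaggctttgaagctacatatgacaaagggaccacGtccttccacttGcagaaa

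The 24 d copies together took 6.44% and 4.53% of Trav with anti-SIGLEC15, against 50.4% and 3.46% with IgG. The 19 n copies took 5.41% and 2.84% with anti-SIGLEC15, against 3.10% and 5.21% with IgG. The 49 segments without either letter held the rest, and IgG replicate 1 was the library with a d copy in front.

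Segments tied to other T cell lineages had few reads. The 8 Trav-dv segments, which can also join to the delta chain, had 35 and 18 reads together with anti-SIGLEC15 and 9 and 15 with IgG, or 1.67% and 0.871% of Trav with anti-SIGLEC15 and 1.16% and 0.635% with IgG. Trav21-dv12 had 2 and 9 of these reads with anti-SIGLEC15 and 0 and 0 with IgG. Its values do not overlap, but a count of 0 allows up to 3 reads, so 2 reads cannot be told from 0. Trav16d-dv11 had 10 and 2 with anti-SIGLEC15 and 1 and 8 with IgG. The other 6 (Trav14d-3-dv8, Trav15-1-dv6-1, Trav15-2-dv6-2, Trav4-4-dv10, Trav6-7-dv9 and Trav13-4-dv7) had between 0 and 7 reads in each library. The delta constant gene Trdc measured 0.379 and 0.174 RPKM with anti-SIGLEC15 and 0.145 and 0.0334 RPKM with IgG. The delta segment gene Trdv5 was at 0 in all 4 libraries, while Trdv4 had 30 and 21 reads with anti-SIGLEC15 and 53 and 9 with IgG.

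Trav1, the segment of the invariant receptor of mouse MAIT cells, had 7 and 1 reads with anti-SIGLEC15 and 1 and 0 with IgG, and its shares overlap between the treatments. Trav11d, a copy of the Trav11 segment that mouse invariant NKT cells use, had 0 and 3 reads with anti-SIGLEC15 and 0 and 0 with IgG, and Trav11 itself was not analysed here. Zbtb16, the transcription factor of both of these lineages, measured 0.784 and 0.319 RPKM with anti-SIGLEC15 and 1.22 and 0.525 RPKM with IgG. Among 8 measured genes of V(D)J recombination and DNA end joining, Dntt, which adds bases at the junction in developing T cells, was at 0 in all 4 libraries. The others were above 0 in every library, and Rag1 and Rag2, also on that list, were not analysed here. The 9 rows annotated as V pseudogenes took 1.30% and 0.652% of Trav with anti-SIGLEC15 and 0.141% and 0.572% with IgG.

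The beta chain V segments, which join the other receptor chain, showed the same kind of concentration. The effective number of Trbv segments was 5.81 and 2.91 with anti-SIGLEC15, against 6.26 and 6.20 with IgG. Trbv15 led both anti-SIGLEC15 libraries with 54.1% and 75.1% of summed Trbv RPKM, against 4.62% and 31.7% with IgG. The order of the 4 libraries by Trbv15 share is the order by Trav12-2 share, and which alpha chains pair with which beta chains cannot be told from bulk RNA. J segments of the alpha chain were more even, with effective numbers of 21.9 and 22.7 with anti-SIGLEC15, against 21.3 and 24.3 with IgG, and Traj1 led in all 4 libraries.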

How the data were processed

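CD8+ T cells yielded poly(A) RNA, sequenced on a DNBSEQ-G50 according to the labels. The deposited files name no unit; RPKM, as made by the authors, was read from the values, since each value times its GENCODE M21 exon length came out as whole reads, within 0.02, for 98.9% to 99.0% of genes under 1000 reads and for all Trav rows. The submitters' processing notes list GRCm38 and mm10. Not given in the sources used here are the aligner, the counter and how reads matching several copies were treated. Of all rows, 36386 matched GENCODE M21 and 78 did not.

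Wilson intervals (95%) and the floor of 3 reads cover counting error only. Levels were tested by limma (trend, robust) on log2(RPKM + 1), which understates changes of low values. Genes needed 1 RPKM in 2 libraries, p-values were adjusted by Benjamini-Hochberg over all tested genes, and the threshold was 0.05. Exact permutation tests were two-sided. The labels do not say that pools of a treatment were made separately, so p-values measure the spread between these libraries, which may be technical.

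Named segments were the 10 with the largest mean share, those reaching 5% in any library, at most 10 with a mean of 1 RPKM or more and non-overlapping groups (by fold change), Trav1, Trav11d and the Trav-dv segments. Members and lists were chosen with earlier results of these data known. Trav6-4, Trbv15, Traj1, Trdv4, Trdv5, Zbtb16 and Dntt were singled out after their values were seen. Printed sequences are GENCODE M21 transcripts, aligned with Biopython 1.88.

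Alternatives were a pseudocount of 0.1, no filter, 5 RPKM as filter, scaling by median of ratios or T cell identity genes, limma-voom (10 reads or more), a replicate block, shares of reads, functional rows, summed copies, and leaving out each library. The test was checked on reads simulated at a negative binomial dispersion of 0.05 around gene means shared by all libraries. Its share of false calls exceeded the threshold there, most 2-fold changes were missed and 98.7% of 4-fold changes were found. Segments varied far more between real pools of a treatment (Trav12-3 had 43 and 447 reads with anti-SIGLEC15). The check therefore does not show which changes could be found among them. Software was R 4.3.3, limma 3.58.1, Python 3.11.15 with numpy 2.4.6, pandas 2.3.3, scipy 1.17.1 and matplotlib 3.10.9.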

Additional observations from a re-analysis of the deposited data

How the results depend on the processing

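The number of Trav segments called was 0 under 9 of the 11 alternatives. It was above 0 without IgG replicate 1 and without IgG replicate 2. There the lone IgG library is assumed to vary like the anti-SIGLEC15 pair, the only source of spread, which is pooled over genes. That pair alone can also pass the filter. For the 15 named segments that passed the filter, between 6 and 11 alternatives gave a log2 fold change, since some leave a segment under the filter; Trav6d-4 and Trav6-6 had none without either IgG library. The sign held in those that gave a value except for Trav6-1 (-0.91 to 2.93 when a library was left out), Trav8d-2 (-0.38 to 2.09) and Trav13-1 (-4.53 to 0.55). The summed Trav level reversed with T cell scaling (-0.047 on the log2 scale) and ran from -0.15 to 1.47 when a library was left out. The share of the 5 leading segments ran from -0.44 to 11.1 percentage points, reversing without anti-SIGLEC15 replicate 2. Usage shared within treatments exceeded that across treatments by 11.2 percentage points on average, by 0.42 without Trav12-2 (an alternative added after the data were seen, as was the inverse Simpson index) and by -10.0 to 35.9 when a library was left out. The other measures kept their direction: across the left-out libraries, the leading share differed by 9.16 to 23.1 points, the Trav12 share by 28.6 to 57.4, the Trav6 share by -39.7 to -8.49, the J-proximal share by 13.2 to 47.4 and the effective number by -5.98 to -0.49. With shares of reads the Trav12-2 result kept its direction, and the cause of the changes above was not tested. The replicate block, with the number in the titles, called 0 of 34 segments (10 at an unadjusted p under 0.05) and gave 0.66 for the summed level. The numbers are not stated to pair pools. With 805 reads in IgG replicate 1, segments with few reads cannot be compared firmly.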
